A study of Mus musculus with 13 samples.

Results

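Primordial germ cells (PGC) of the embryonic gonad at E12.5 (E stands for embryonic day) were compared with 5 other mouse cell types by where the transcriptional repressor BLIMP1 was bound in the genome. All animals and cell lines were C57BL/6 and homozygous for EGFP-BLIMP1, a knock-in that puts EGFP at the front of the protein, so that an anti-GFP antibody served for every chromatin immunoprecipitation (ChIP) and no untagged control is among the lists analysed here. The E12.5 PGC were sorted for SSEA1 from the gonads of embryos obtained by intracytoplasmic sperm injection, with 1 library from male and 1 from female gonads (330000 and 360000 cells). The other cell types had 2 libraries each: PGC-like cells (PGCLC) at days 2 and 6 of induction from embryonic stem cells with LIF and BMP4 (BMP8a, SCF and EGF were also named for day 6), sorted for KIT or for SSEA1 and integrin beta-3; intestinal epithelium of E16.5 embryos, sorted for GFP and EPCAM; photoreceptor precursors of postnatal day 4 retinas, sorted for GFP; and plasmablasts from B cells stimulated for 3 days with IL-4 and LPS, sorted for GFP and CD138. The PGCLC and plasmablasts were thus made in culture, whereas the E12.5 PGC came straight from the embryo.

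The deposited lists give the position of each peak summit and nothing else. Joining the summits of the 12 ChIP libraries across gaps of up to 200 bp gave 152528 regions on chromosomes 1 to 19. A cell type counted as binding a region if each of its 2 libraries placed a summit there. By this rule 7535 regions were bound in E12.5 PGC, which is 4.94% of all merged regions. The corresponding values were 7.69% in d2 PGCLC, 7.37% in d6 PGCLC, 14.9% in plasmablasts, 5.07% in photoreceptor precursors and 3.19% in intestinal epithelium. The E12.5 PGC lists held 12115 and 17369 summits on these chromosomes, and the other 10 lists held between 7866 in 1 intestinal epithelium library and 75237 in replicate 1 of d6 PGCLC. Read depth and peak heights were not given, so a longer list may come from a deeper library or a looser threshold, and a summit that is missing from a list is not evidence that BLIMP1 was absent there. The median distance between the summits of both libraries within a bound region was 43 bp in E12.5 PGC, against 38 to 57 bp in the other cell types. Nothing in the sources used here says whether replicates came from separate animals or cultures, so spreads and p-values cover only the libraries themselves.

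BLIMP1, the product of Prdm1, binds DNA through zinc fingers, recruits repressive enzymes and is required for the specification of mouse germ cells, for the maturation of plasma cells and for the identity of other somatic cells. By E12.5 the germ cells have settled in the gonad, have lost most of their DNA methylation and stand shortly before meiosis in females and mitotic arrest in males. The protein recognises short elements built around GAAAG, which resemble the sites of interferon regulatory factors, so that genes of antigen presentation and the interferon response belong to its best known targets.

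The motif AGNGAAAG (N is any base, both strands searched) was looked for in the 300 bases around each gene start, 250 before and 50 after it, in a RefSeq promoter table of GRCm38.p6. It was found in 8.63% of 31365 promoters on the autosomes. Among the 365 promoters in which both E12.5 PGC libraries had a summit within these bases, 141 held the motif, a share of 38.6%. The stretches printed here are the 100 bases that surround a match before the start of 8 named genes whose window held summits of both libraries, read in the direction of the gene, with matches on either strand in capitals. The first 4 belong to genes bound in all 6 cell types or in 5 of them, and the last 4 to genes bound only in the germ line cell types.
Cox7a1, chr7:30184035-30184134, plus strand: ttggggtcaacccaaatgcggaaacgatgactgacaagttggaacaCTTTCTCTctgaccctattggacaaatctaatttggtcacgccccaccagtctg
Ndufa7, chr17:33824472-33824571, plus strand: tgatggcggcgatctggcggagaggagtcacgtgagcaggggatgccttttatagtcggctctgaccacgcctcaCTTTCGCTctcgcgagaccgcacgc
Atp5d, chr10:80142175-80142274, plus strand: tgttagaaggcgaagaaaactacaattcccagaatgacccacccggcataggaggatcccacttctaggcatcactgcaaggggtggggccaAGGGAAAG
Rps2, chr17:24719921-24720020, plus strand: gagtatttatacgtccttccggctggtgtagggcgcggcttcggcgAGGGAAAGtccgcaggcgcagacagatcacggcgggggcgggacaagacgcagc
Clec12b, chr6:129385594-129385693, minus strand: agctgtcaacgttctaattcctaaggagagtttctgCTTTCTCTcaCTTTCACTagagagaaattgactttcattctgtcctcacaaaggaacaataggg
Cyp2j9, chr4:96591539-96591638, minus strand: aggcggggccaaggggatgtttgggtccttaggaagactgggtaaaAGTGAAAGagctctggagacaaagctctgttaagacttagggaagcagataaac
Inhbc, chr10:127370565-127370664, minus strand: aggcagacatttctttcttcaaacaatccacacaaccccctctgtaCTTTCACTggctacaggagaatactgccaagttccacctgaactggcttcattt
Timp4, chr6:115252331-115252430, minus strand: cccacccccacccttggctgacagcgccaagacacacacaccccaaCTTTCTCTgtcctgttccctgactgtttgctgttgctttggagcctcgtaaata

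In the stretch of Cox7a1, which encodes a subunit of cytochrome c oxidase, the summits of the E12.5 PGC libraries lay 10.5 and 6.5 bp from the middle of the match. At Ndufa7, a subunit of respiratory complex I, these distances were 9.5 and 14.5 bp. At Clec12b, a C-type lectin receptor gene with a pair of matches side by side, they were 27.5 and 57.5 bp. At Inhbc, which encodes an inhibin beta chain, they were 65.5 and 118.5 bp, and at Timp4, a metalloproteinase inhibitor, 108.5 and 90.5 bp, so a match in the window need not be where the summit fell. Over the 141 promoters with the motif, the nearest summit lay at a median of 24.5 and 26.5 bp from a match in the E12.5 PGC libraries, against medians of 25.5 to 42.5 bp in the bound promoters of the other 10 libraries. Windows of neighbouring starts overlap, so the promoters are not independent of one another.

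The share of bound promoters with AGNGAAAG was 38.6% in E12.5 PGC, against 37.9% in d2 PGCLC, 32.1% in d6 PGCLC, 13.1% in plasmablasts, 25.2% in photoreceptor precursors and 35.1% in intestinal epithelium. The plasmablast value came from 2802 promoters, by far the longest set. The narrower AGTGAAAG was in 15.3% of the E12.5 PGC promoters and in 1.31% of all promoters. A pair of GAAA blocks 2 bases apart, the form of a site for interferon regulatory factors, was in 17.5% of the E12.5 PGC promoters and in 3.45% of all promoters, and a stretch can hold more than one of these overlapping motifs. Within the E12.5 PGC promoters, AGNGAAAG was in 24.1% of the 145 that were bound in at most 2 other cell types, in 43.0% of the 121 bound in 3 or 4, and in 54.5% of the 99 bound in all 5. Bound promoters were richer in G and C than the average, with a median GC content of 59.7% in the E12.5 PGC promoters and 53% in all promoters. A match describes the letters of the window and does not show that BLIMP1 touched them.

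**Figure D1:**
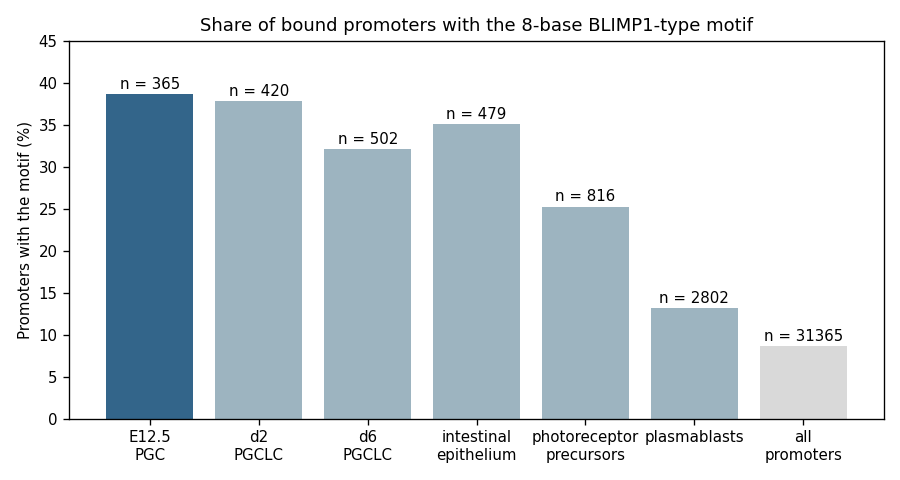
Percent of promoters that hold AGNGAAAG on either strand (vertical axis) among those with summits of both libraries in the 300-base window, for E12.5 PGC and the 5 other cell types, and among all promoters; n is the number of promoters. E12.5 PGC stood at 38.6%, against 13.1% in plasmablasts and 8.63% of all promoters.

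Most of the regions bound in gonadal germ cells were also bound in the cultured germ cell models. Of the 7535 regions, 71.0% were bound in d6 PGCLC (95% Clopper-Pearson interval 70.0 to 72.0%) and 69.2% in d2 PGCLC (68.2 to 70.3%). The shares in somatic cells were 38.9% in plasmablasts (37.8 to 40.0%), 27.2% in intestinal epithelium (26.2 to 28.2%) and 24.7% in photoreceptor precursors (23.7 to 25.7%). These intervals cover counting error over regions only. In single libraries the share of E12.5 PGC regions with a summit ran from 27.6% in photoreceptor precursor replicate 1 to 91.2% in d6 PGCLC replicate 1, the longest list. The 4 PGCLC libraries, at 73.2% to 91.2%, did not overlap with the 6 somatic libraries, at 27.6% to 44.6%. Without replicate 1 of d6 PGCLC the share bound in d6 PGCLC was 73.7%, but replicate 2 alone then decided binding. That rule is looser than the rule of both libraries, so the value cannot show how far the share rests on the longest list. Read the other way, 47.6% of the d6 PGCLC regions, 44.5% of the d2 PGCLC regions, 42.1% of the intestinal epithelium regions, 24.1% of the photoreceptor precursor regions and 12.9% of the plasmablast regions were bound in E12.5 PGC. The high share of E12.5 PGC regions in plasmablasts thus went with a low share of plasmablast regions in E12.5 PGC, whose set is shorter.

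**Figure D2:**
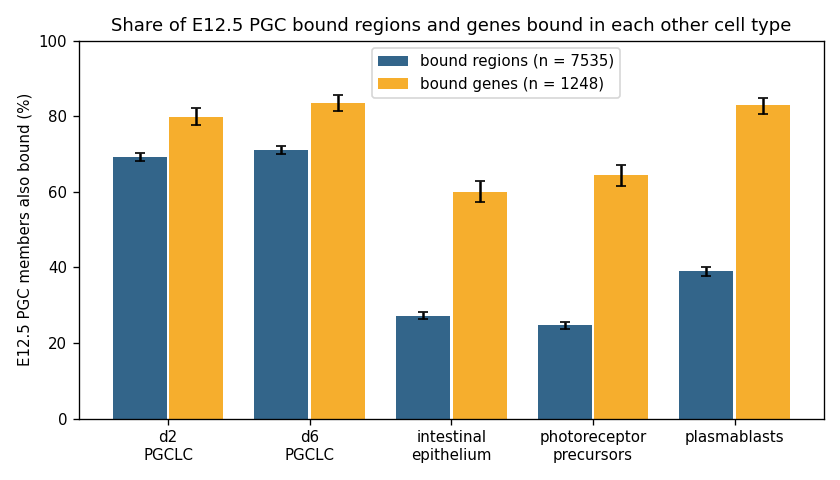
Percent of the 7535 regions and 1248 protein-coding genes bound in E12.5 PGC that were bound in each of the other 5 cell types (vertical axis), with 95% Clopper-Pearson intervals. Region shares were 69.2% and 71.0% in d2 and d6 PGCLC and 24.7% to 38.9% in the somatic cell types, whereas gene shares were 60.02% to 83.5%. Genes take any summit within 1 kb of a start, a wider rule than that for regions.

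The commonest pattern was binding in E12.5 PGC together with d2 and d6 PGCLC and in no somatic cell type, which held for 2013 regions (26.7%). Binding in all 6 cell types held for 1075 regions (14.3%), and binding in E12.5 PGC alone for 1133 (15.04%). Of those 1133, however, 912 had a summit in at least 1 single library of another cell type, 801 of them in d6 PGCLC. Only 221 regions, 2.93% of the bound set, had no summit in any of the other 10 libraries. That number depended on 1 list: without replicate 1 of d6 PGCLC it was 604. Regions with no summit in any somatic library numbered 3150 (41.8%), and 1596 of these (21.2% of all) were bound in both PGCLC stages. At the other end, 120 regions had a summit in a somatic library and none in any PGCLC library.

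The bound regions of gonadal germ cells lay mostly away from gene starts. Of the 7535, 14.9% lay within 1 kb of the start of a protein-coding gene, 40.9% elsewhere in a gene and 44.2% outside genes, with a median distance to the nearest start of 23300 bp and 20.4% over 100 kb away. The share near a start was 13.9% in d2 PGCLC and 15.5% in d6 PGCLC, against which intestinal epithelium had 27.9%, photoreceptor precursors 25.5% and plasmablasts 33.9%. Among regions bound in another cell type but not in E12.5 PGC it was 24.6%.

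Over whole libraries, 14.0% and 14.1% of the summits of E12.5 PGC lay within 1 kb of a start, against 13.2% to 16.3% in the 4 PGCLC libraries and 25.4% to 31.7% in the 6 somatic libraries. The E12.5 PGC values thus lay inside the PGCLC range and below every somatic library. The mean was 14.0% ± 0.047 in E12.5 PGC (SD, n = 2) and 22.9% ± 7.49 in the other libraries (SD, n = 10), which an exact two-sided permutation test over the 66 choices of 2 libraries did not separate (p = 0.182, adjusted p = 0.182 over 3 measures by Benjamini-Hochberg). The median distance from a summit to the nearest start was 25723 and 24482 bp in E12.5 PGC, longer than in each of the other 10 libraries, where it was 5920 to 21934 bp. The exact permutation test gave p = 0.0303, the smallest that 2 against 10 libraries allow, and an adjusted p = 0.0909. Summits were also counted by whether they lay in runs of at least 3 merged regions of their library within 10 kb. The share of summits in such runs was 9.75% and 12.46% in E12.5 PGC, against 12.3% to 59.4% in the others (exact two-sided permutation p = 0.0606, adjusted p = 0.0909). This share was highest in the longest lists, 59.4% in the list of 75237 summits and 54.2% and 58.2% in the plasmablast lists, and the part of list length in it was not tested. None of the 3 measures passed 0.05 after adjustment. With starts taken at 5 kb in place of 1 kb, the share near a start (difference -12.52 percentage points) and the median distance both had an exact permutation p = 0.0303 and an adjusted p = 0.0455. The median distance does not use this window, so only its adjusted p changed. Against the 4 PGCLC libraries alone the share near a start differed by -0.54 percentage points (exact permutation p = 0.8, smallest possible 0.133). All these tests took single libraries as exchangeable, although they come as 2 from each cell type. Their p-values therefore do not compare E12.5 PGC with other cell types as units.

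Germ cell regions that were bound in many cell types lay near starts more often than those bound in few. Of the regions bound in E12.5 PGC alone, 5.74% lay near a start (4.46 to 7.25%), with 8.84% of those bound in 2 cell types and 7.39% of those bound in 3. The share was 16.49% with 4 cell types, 27.6% with 5 and 37.5% (34.6 to 40.5%) with all 6. Median distances to the nearest start were 37710 bp for regions of E12.5 PGC alone and 6754 bp for those of all 6 cell types. Among the 3150 regions with no somatic summit, 3.62% lay near a start, against 23.01% of the 4385 with one.

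**Figure D3:**
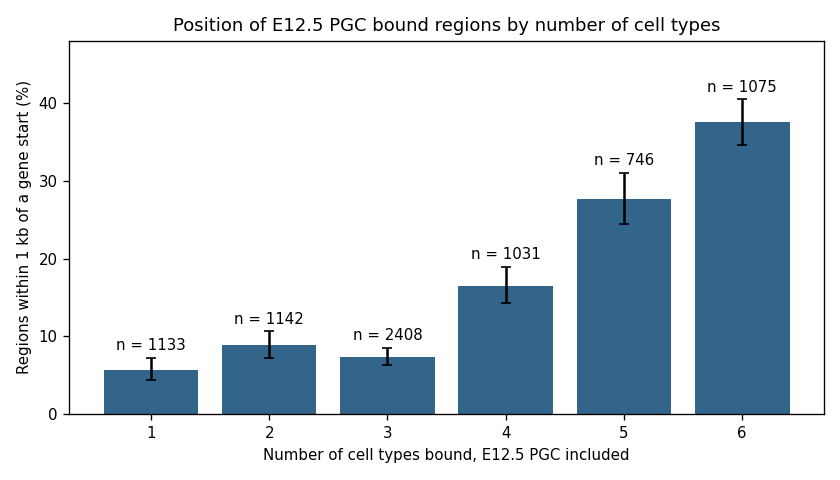
Percent of E12.5 PGC bound regions within 1 kb of a protein-coding gene start (vertical axis) by the number of cell types in which the region was bound, with 95% Clopper-Pearson intervals and the number of regions. The share was 5.74% for regions of E12.5 PGC alone and 37.5% for regions of all 6 cell types.

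A gene was counted as bound when both libraries of a cell type had a summit within 1 kb of its start, or of either end where no start was given. These summits need not fall in the same region: of the genes bound in E12.5 PGC, 1210 had a bound region in the gene or within 10 kb. In E12.5 PGC 1248 of 20661 protein-coding genes were bound, or 6.04%, against 8.6% in d2 PGCLC, 10.1% in d6 PGCLC, 42.6% in plasmablasts, 10.6% in photoreceptor precursors and 7.75% in intestinal epithelium. No start was given for 238 of these 1248 genes (19.1%), so their distances run to either end of the gene. A larger set of 4770 genes, 23.1% of all, had a bound E12.5 PGC region in the gene or within 10 kb of it. Bound genes were shared far more than bound regions: 83.5% of the 1248 were bound in d6 PGCLC, 82.9% in plasmablasts, 79.9% in d2 PGCLC, 64.3% in photoreceptor precursors and 60.02% in intestinal epithelium. The measures are unlike, because a gene takes any summit within 1 kb of its start, whereas a region joins summits across gaps of up to 200 bp. The plasmablast share stands beside a background of 42.6% of all genes. Of the 1248, 520 were bound in all 6 cell types and 23 in E12.5 PGC alone, and none lacked a summit of another cell type within 1 kb or 5 kb of its start. Among noncoding genes, 2.70% of 12408 lncRNA genes and 1.85% of 1136 microRNA genes were bound.

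Genes that load peptides onto MHC class I molecules were the list with the highest share. Of 20 members 10 were bound in E12.5 PGC (50%, against 6.04% of all genes), and 14 of the list were bound at each PGCLC stage, 20 in plasmablasts, 10 in photoreceptor precursors and 13 in intestinal epithelium. The PGCLC stages and plasmablasts each bound 79.9% to 83.5% of all 1248 genes bound in E12.5 PGC. All 10 list members bound in E12.5 PGC were also bound in both PGCLC stages and in plasmablasts. They were the peptide transporter genes Tap1 and Tap2, the loading factors Tapbp and Tapbpl, the immunoproteasome subunits Psmb9 and Psmb10, the proteasome activators Psme1 and Psme2, the peptidase Erap1 and Nlrc5, the transactivator of MHC class I genes. At Erap1 the E12.5 PGC summits lay 4 and 2 bp from the start, against 8 to 78 bp in the other 10 libraries. At Tap2 they lay 19 and 24 bp from the start, against 5 to 65 bp in the others. At Nlrc5 they lay 24 and 69 bp away, against 12 to 126 bp. These 3 promoters were therefore occupied at about the same place in every library. Psme1 differed: E12.5 PGC had summits at 118 and 22 bp, all 4 PGCLC and both plasmablast libraries had one within 136 bp, and both intestinal epithelium libraries had none closer than 8344 bp. Tap1 and Psmb9 start next to each other on opposite strands of chromosome 17, and a summit between such neighbours can count for both. Close to the start of Tap2, a region at chr17:34203848-34204015 had summits in the E12.5 PGC libraries and in no other.

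Genes of the interferon response were bound in 12 of 56 cases (21.4%, against 6.04% of all genes). Socs1, an inhibitor of interferon signalling, had E12.5 PGC summits 53 and 89 bp from its start and was also bound in every cell type but intestinal epithelium, where the nearest summits were 13780 bp or more away. Irgm2, an interferon-inducible GTPase gene, had E12.5 PGC summits at 119 and 144 bp and was bound in both PGCLC stages and in plasmablasts. Ifih1, the sensor of viral RNA also called MDA5, had summits at 19 and 26 bp in E12.5 PGC, while in each PGCLC stage 1 of the libraries had none within 1 kb. The list had 42 of 56 members bound in plasmablasts (75%), 16 in d6 PGCLC, 14 in d2 PGCLC, 12 in intestinal epithelium and 8 in photoreceptor precursors. Over all genes the shares bound were 42.6%, 10.1%, 8.6%, 7.75% and 10.6% in the same order. Binding does not tell whether these genes were silent.

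**Figure D4:**
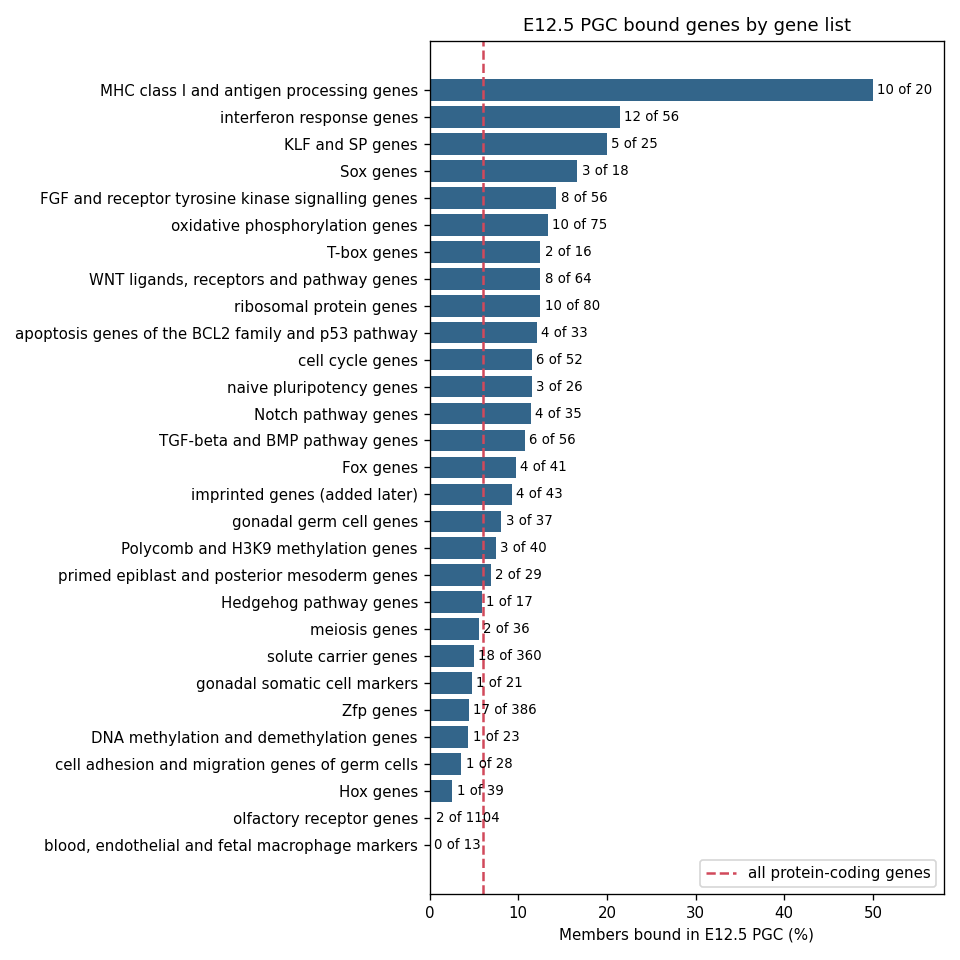
Percent of the members of 29 gene lists that were bound in E12.5 PGC (horizontal axis), with the counts, and the 6.04% of all protein-coding genes as a dashed line. MHC class I and antigen processing genes stood at 50%, interferon response genes at 21.4% and markers of blood and endothelium at 0.

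Genes of energy metabolism and translation were bound about as often in E12.5 PGC as in the cultured stages. Of 75 oxidative phosphorylation genes 10 were bound in E12.5 PGC (13.3%, against 6.04% of all genes). Plasmablasts bound 59, d6 PGCLC 13 and d2 PGCLC 11 (42.6%, 10.1% and 8.6% of all genes). The 10 E12.5 PGC genes were all bound in both PGCLC stages and in plasmablasts. Each of these cell types bound 79.9% to 83.5% of all 1248 genes bound in E12.5 PGC. Of 80 ribosomal protein genes 10 were bound in E12.5 PGC, against 9 in d2 PGCLC, 10 in d6 PGCLC, 70 in plasmablasts, 25 in photoreceptor precursors and 13 in intestinal epithelium, where 10.6% and 7.75% of all genes were bound in the last 2. With 1 library left out the E12.5 PGC counts reached 16 and 18. Distances to the start varied among these genes, with E12.5 PGC summits 820 and 823 bp away at Atp5a1, which encodes the alpha subunit of ATP synthase, and 297 and 286 bp away at Ndufs8, a subunit of complex I. At Atp5d, which encodes the delta subunit of ATP synthase, they lay 19 and 13 bp away in E12.5 PGC and 3 to 26 bp in the other libraries. At Rps2, a gene of the small ribosomal subunit, they lay 14 and 117 bp away in E12.5 PGC, against 2 to 167 bp. Ndufa7 and Rps28 start next to each other on opposite strands of chromosome 17, so that 1 pair of summits, 12 and 36 bp from the start of Ndufa7, counts for both lists. Rps29 was bound in E12.5 PGC at 96 and 0 bp, in photoreceptor precursors and in plasmablasts, but 3 of the 4 PGCLC libraries had no summit nearer than 4035 bp.

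A fixed set of 24 genes, most with roles in germ cells or pluripotency, was followed in every library. At the start 3 of them were bound in E12.5 PGC (6.04% of all genes were): Sox2, Myc and Tap1. Myc and Tap1 were bound in every cell type. A bound region in the gene or within 10 kb was found for 11 of the 24, against 23.1% of all genes. The numbers bound at the start were 5 in d2 PGCLC, 5 in d6 PGCLC, 8 in plasmablasts, 3 in photoreceptor precursors and 4 in intestinal epithelium, beside 8.6%, 10.1%, 42.6%, 10.6% and 7.75% of all genes in the same order. Sox2, a core pluripotency factor that germ cells express again, had summits 83 and 189 bp from its start in E12.5 PGC and at 17 to 164 bp in the 4 PGCLC libraries. The nearest summits of the 6 somatic libraries were 9152 bp or more away. The region, at chr3:34649912-34650184, thus had a summit in each germ line library and in no somatic one. Beginning 11884 bp from the start, a stretch at chr3:34661764-34670122 held 4 further E12.5 PGC regions. Myc, the growth regulator, was bound in every library at 197 to 271 bp, E12.5 PGC at 246 and 206 bp. Its relative Mycn had a summit within 1 kb in only 1 of the E12.5 PGC libraries. All 6 somatic libraries had one 70 to 209 bp from the start, as did d2 PGCLC replicate 2 and d6 PGCLC replicate 1. A pair of E12.5 PGC bound regions lay nearby, at chr12:12943323-12943517 and chr12:12951561-12951699. These regions had summits in all 6 germ line libraries and in no somatic one.

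The gene of BLIMP1 itself, Prdm1, had no E12.5 PGC summit nearer than 30367 bp to the start given in the promoter table. That start lies inside the gene, which runs on the minus strand with its 5′ end at position 44528558 of chromosome 10, so the table may lack another start there. Both plasmablast libraries had a summit within 238 bp of the tabulated start, and so did d6 PGCLC replicate 1, with photoreceptor precursor replicate 2 at 263 bp. In E12.5 PGC 3 bound regions lay in or near the gene. Those at chr10:44489115-44489175 and chr10:44520233-44520467 lay in the gene and had summits in all 6 germ line libraries and in no somatic one, and that at chr10:44529569-44529636 lay just upstream of this 5′ end and had summits in all 12 libraries. Pou5f1, the gene of OCT4, had a region at chr17:35516952-35517093 with summits in all 12 libraries, 8241 bp from its start. Kit, the receptor of stem cell factor, had a bound region within the gene at chr5:75641229-75641307, with summits in 4 libraries, none of them somatic. Tet1, a DNA demethylase, had 3 bound regions in or near it and Tfap2c, the AP2gamma gene required for germ cell specification, 1. Nanog, Prdm14, Dppa3, Nanos2, Nanos3, Dazl, Ddx4, Dnd1, Stra8, Sycp3, Lin28a, Sall4 and Uhrf1 had no bound region in the gene or within 10 kb.

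**Figure D5:**
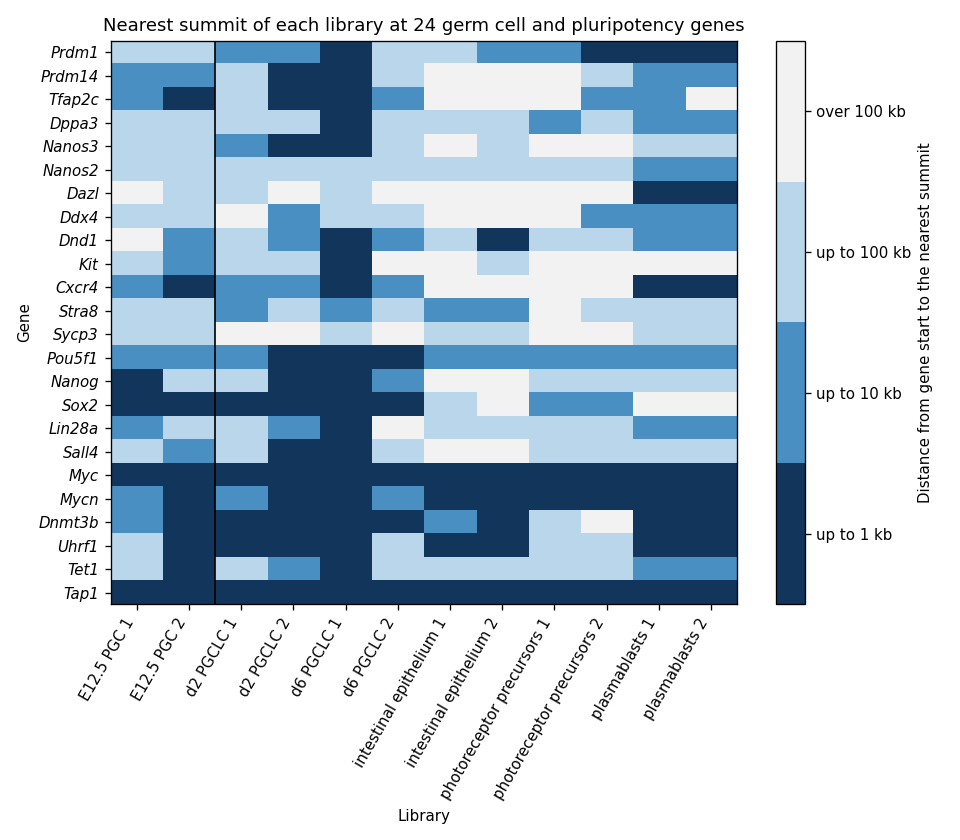
Distance from the start of 24 genes (rows) to the nearest summit in each of the 12 libraries (columns, E12.5 PGC at the left of the line), in 4 classes. Myc and Tap1 are dark, within 1 kb, in every library, and Sox2 in the E12.5 PGC and PGCLC libraries only.

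The wider list of naive pluripotency genes had 3 of 26 members bound at the start (11.5%, against 6.04% of all genes), namely Sox2, Klf5 and Dppa5a, but 16 of 26 with a region in or near the gene (61.5%, against 23.1% of all genes). The median length of these 26 genes was 9899 bp and that of all protein-coding genes 17491 bp. Klf5 was bound in all 6 cell types, with E12.5 PGC summits at 97 and 32 bp. Dppa5a, a marker of pluripotent and germ cells, had summits at 95 and 102 bp in E12.5 PGC and within 73 bp in both d2 PGCLC libraries. In d6 PGCLC replicate 1 had one at 6 bp, but replicate 2 had none nearer than 175075 bp. In the 6 somatic libraries the nearest summit was 62511 bp or more away. Of 29 genes of the primed epiblast and posterior mesoderm, which germ cells switch off, 2 were bound in E12.5 PGC (6.90%, against 6.04% of all genes): Otx2, an anterior and epiblast regulator that opposes germ cell fate, at 802 and 265 bp, and the ligand gene Wnt3 at 765 and 773 bp. The Otx2 summits did not share a bound region, and the only bound region in or near that gene lay 8078 bp from its start.

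Gonadal germ cell genes (3 of 37 bound, 8.11%) and meiosis genes (2 of 36, 5.56%) were bound about as often as all genes. The 3 were Alpl, the alkaline phosphatase used to stain germ cells, with E12.5 PGC summits at 282 and 302 bp, the RNA helicase gene Mov10 and Lhx8, a regulator of oocytes. The meiosis genes were Mnd1, which takes part in strand exchange and was bound in all 6 cell types, and Ythdc2, which is needed for entry into meiosis. None of the 7 germ cell markers Ddx4, Dazl, Dppa3, Pou5f1, Kit, Dnd1 and Nanos3, of 6 markers of gonadal somatic cells or of 5 markers of blood and endothelium was bound at the start. Over all genes 6.04% were bound, and lists this short may hold no bound gene at that share. Binding does not report expression, so these counts say nothing of the purity of the sort.

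Regions in or within 10 kb of signalling genes include most of those at their starts, so each count has its own share over all genes, 6.04% at the start and 23.1% in or near the gene. Of 64 WNT pathway genes 8 were bound, or 13 with 1 library left out, and 30 had a region in or near the gene (46.9%, against 23.1% of all genes). Those bound were the ligands Wnt3 and Wnt16, the receptors Fzd1 and Fzd4, the secretion factor Wls, the enhancer of WNT signalling Rspo3, and Ctnnb1 and Tcf7l2, which act in the nucleus. At Ctnnb1, the beta-catenin gene, the E12.5 PGC summits lay 757 and 43 bp from the start. Of 56 genes of FGF and receptor tyrosine kinase signalling 8 were bound (14.3%) and 27 had a region (48.2%). Igf1r, the IGF receptor gene, had summits at 172 and 222 bp and 5 regions in or near it. Of 56 TGF-beta and BMP genes 6 were bound (10.7%), among them the oocyte factor gene Gdf9, at 23 and 23 bp, and Smad4. The Gdf9 region, at chr11:53430707-53430939, also lies at Uqcrq and counts for the oxidative phosphorylation list too. Both genes were bound in every cell type. Of 39 Hox genes only Hoxb7 was bound, at 648 and 245 bp, but 18 had a region within 10 kb (46.2%). The Hox genes lie close together, and 1 region can count for several. Median gene length was 32033 bp in the WNT list, 26991.5 bp in the FGF list and 3737 bp in the Hox list. Over all protein-coding genes it was 17491 bp, and the part of gene length in these region counts was not tested.

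Among regulators of proliferation and survival, 6 of 52 cell cycle genes were bound (11.5%, against 6.04% of all genes), namely Myc, Rb1, Cdk2, Cdk6, Ccna2 and Cdc25a. Up to 14 were bound with 1 library left out. Of 33 genes of the BCL2 family and the p53 pathway 4 were bound (12.1%): Trp53, Bcl2l11 and Bmf, whose products promote cell death, and Birc2, an inhibitor of apoptosis. The summits at Bcl2l11, the gene of BIM, lay 26 and 8 bp from the start in E12.5 PGC and 2 to 45 bp in the other libraries. Of 23 genes of DNA methylation only the methyltransferase gene Dnmt3a was bound (4.35%), at 263 and 241 bp, with 4 regions in all and binding in every cell type. Of 40 Polycomb and H3K9 methylation genes 3 were bound (7.5%), including Eed, a core subunit of the PRC2 complex, at 16 and 31 bp. The shares of the DNA methylation and Polycomb lists thus lay near the 6.04% of all genes. KLF and SP factors (5 of 25) and Sox genes (3 of 18) stood at 20% and 16.7%. Olfactory receptor genes were nearly free of binding (2 of 1104, 0.181%).

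Binding shared by the germ line cell types and absent from somatic lists was found at the starts of 36 genes, bound in E12.5 PGC and both PGCLC stages with no somatic summit within 1 kb. The values of all 12 libraries chose these genes, so what follows describes them without a test. They include Sox2, Hesx1, a homeobox gene of the early embryo, Zp2, which encodes an egg coat protein, Inhbc, Timp4, Clec12b and Cyp2j9. At Hesx1 the E12.5 PGC summits lay 193 and 193 bp from the start and those of the PGCLC libraries 184 to 206 bp, while the nearest somatic summit was 5736 bp away. For Zp2 no start was given. The E12.5 PGC summits lay 167 and 304 bp from 1 end of that gene, which may not be its start. Somatic summits were all 1880 bp or more from either end. A pair of them, Snrpn and Mkrn3, are expressed from the paternal copy of the imprinted region on chromosome 7. Snrpn had E12.5 PGC summits at 172 and 123 bp and PGCLC summits at 114 to 209 bp, with the nearest somatic summit 135050 bp away, and it shares this start with Snurf. Mkrn3 had summits at 594 and 594 bp in E12.5 PGC and at 509 to 641 bp in PGCLC, with the nearest somatic summit 461626 bp away. Of 43 imprinted genes, a list added after these values were seen, 4 were bound in E12.5 PGC (9.30%, against 6.04% of all genes): Snrpn, Mkrn3, Mest and Gab1. None of these 4 was bound in plasmablasts, which bound 10 of the list (23.3%, against 42.6% of all genes). For Snrpn and Mkrn3 this was fixed beforehand, because the 36 genes were chosen for having no somatic summit within 1 kb.

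The 23 genes bound in E12.5 PGC and in no other cell type by both libraries all had a summit of another cell type within 1 kb of the start. In 20 of them d6 PGCLC replicate 1 had a summit within 1 kb, in 12 d2 PGCLC replicate 2, and in at most 4 any single somatic library. They include M1ap, a gene of meiotic progression, with E12.5 PGC summits at 221 and 271 bp, Sox15, at 220 and 114 bp, Wnt16, at 29 and 38 bp, Ythdc2, and Wdr77, whose product is the partner of the arginine methyltransferase PRMT5. At Wdr77 the E12.5 PGC summits lay at 350 and 611 bp and did not share a bound region. The only bound region in or near this gene, at chr3:105958340-105958463, lay 1134 bp from the start and had summits in all 12 libraries.

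The 221 regions without a summit in any other library were spread over 216 nearest genes, and the genes with 2 such regions included Atp1b1, a sodium pump subunit, Lama3, a laminin chain, Serpine2, a protease inhibitor, and Pcdh10, a protocadherin. Those nearest to Pcdh10 lay far outside the gene, one of them 773132 bp from its start. Of the 221, 6 lay within 1 kb of a start (2.71%), at Ogfr, Nes, Mcm7, Flt3l, Mast4 and Tap2, and 94 elsewhere in a gene. The gene with most bound regions overall among those bound at the start was Cadps2, a factor of vesicle release, with 7, followed by Exoc2, Dok5 and Mast4 with 6 each. They are 147969 to 602614 bp long, against a median of 17491 bp for all protein-coding genes.

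Regions also came in groups. In stretches of up to 10 kb, 3 bound regions lay together in 48 cases and 4 or more in 8. The densest, with 9 and 7 regions, lay at chr9:3020506-3029828 and chr9:3000093-3006847, near the start of that chromosome's assembled sequence, followed by chr14:19415853-19418835 with 5. Single regions there had summits in 2 to 12 libraries. Leaving these 3 and 50 kb on either side out, an alternative added after the data were seen, left 7510 bound regions. Stretches of 4 regions included those nearest to Dnmt3a, Lrrc4c, Igf1r and Sox2. Stretches of 3, picked here after their values were seen, included Dmrt1, a regulator of sex determination and of germ cells, at chr19:25479311-25487756, and Gfra1, the GDNF receptor of spermatogonial stem cells, at chr19:58194118-58202892. Each region of these last stretches had summits in 4 to 6 libraries.

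Among 919 microRNA hairpins on the autosomes, 17 lay within 1 kb of a bound E12.5 PGC region (1.85%), against 32 in d2 PGCLC, 34 in d6 PGCLC, 77 in plasmablasts, 25 in photoreceptor precursors and 13 in intestinal epithelium. The nearest was Mir132 on chromosome 11, 27.5 bp from the middle of a region, with its neighbour Mir212 at 254 bp. Both precursors give a 3p arm with the same seed, bases 2 to 8, shown in capitals because it is what the pair share.
mmu-miR-132-3p: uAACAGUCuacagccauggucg
mmu-miR-212-3p: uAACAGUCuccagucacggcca
Of the 12 libraries 11 had a summit within 1 kb of these hairpins. Mir7236, also on chromosome 11, was the hairpin with the fewest, 3 libraries, at 683.5 bp from an E12.5 PGC region.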

How the data were processed

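MACS2 2.1, Bowtie 1.1.2, cutadapt 1.7.1 and Trim Galore 0.3.7 are named in the submitters' processing notes, with mm10 as the build. The deposited lists, 1 per ChIP library, hold a chromosome and a summit position, with no height, score or depth. The sources used here give neither the calling threshold nor the control, and leave the base from which positions count unstated, so each may be off by 1 bp. Intervals cover counting error only. The input library was not analysed here, and neither were chromosomes X and Y.

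Summits were merged by single linkage at 200 bp. Gene starts came from RefSeq tables of GRCm38.p6, which has the coordinates of mm10. For 4205 of 20661 protein-coding genes no start was given there and either end was used. Alternative starts outside the table were missed. Named genes followed a rule: bound genes ranked by number of regions within 10 kb, then by distance, then by symbol (first 15, first 10 bound in all 6 cell types, up to 6 per list), genes with most regions free of other summits, and 24 fixed genes. The 23 genes bound in E12.5 PGC alone, the 36 germ line genes and the 8 promoters shown were picked after their values were seen. Genes with no summit of another library within 5 kb were also asked for, and there were 0. The members and lists were chosen with earlier results of these data known, so lists are described beside the background and not tested. Library values were compared by exact permutation, with Python 3.11.15, numpy 2.4.6, pandas 2.3.3 and scipy 1.17.1. Merging and the permutation test were tested on simulated data with known answers. Alternatives were other merge distances and windows, either library, either gene end, other comparison libraries and each library left out.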

Additional observations from a re-analysis of the deposited data

Results flagged for a closer look

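Summits on contigs outside chromosomes 1 to 19, X and Y, which entered no comparison, numbered 12 and 8 in the E12.5 PGC lists. The other 10 lists held 4 to 25 of them. They are given because they lie in data that no comparison used, and there was no control list to set them against.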

How the results depend on the processing

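Bound regions numbered 7535 with a merge distance of 200 bp. A merge distance of 100 bp gave region shares of 65.6% in d2 PGCLC, 67.6% in d6 PGCLC, 36.4% in plasmablasts, 23.6% in photoreceptor precursors and 26.2% in intestinal epithelium. At 500 bp these were 72.0%, 74.0%, 42.7%, 26.3% and 28.8% in the same order, and 141 regions had no summit in another library. Counting a region as bound when either library had a summit gave 21675 regions, with shares of 52.6%, 67.4%, 30.8%, 18.7% and 21.3%. Of these, 5358, 3678, 6129, 2736, 1663 and 2111 were bound in 1 to 6 cell types, and the 5358 had no summit in another library. For genes, a window of 500 bp gave shares of 80.1% in plasmablasts, 77.7% in d6 PGCLC and 76.4% in d2 PGCLC. A window of 5 kb gave 2205 genes with 53.9% in both intestinal epithelium and photoreceptor precursors. Either library gave 2837 genes, with 71.8% in d2 PGCLC, 90.1% in d6 PGCLC, 60.2% in photoreceptor precursors, 85.3% in plasmablasts and 1086 bound in all 6. Taking either end of every gene gave 1248 genes, of which 1074 were among the 1248 of the report. With the 5 kb window the difference in the share near a start (-12.5) passed 0.05 after adjustment. That in median distance (11205.5 bp) does not use the window and passed 0.05 only because the adjustment changed. The germ line shares stayed above the somatic shares over regions in each of these settings.

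Leaving out 1 library at a time gave 7501 to 17230 regions and 1248 to 2401 genes, of which 523 to 578 were bound in all 6 cell types. The high values came from using 1 E12.5 PGC library in place of both: 17230 and 12003 regions, 2401 and 1684 genes. Regions with no summit in another library ran from 224 to 3045. Regions bound in 1 to 6 cell types ran from 405 to 6858, 1086 to 3061, 2312 to 3850, 1034 to 1433, 746 to 909 and 1076 to 1162. Region shares ran from 43.0% to 79.5% in d2 PGCLC, 43.7% to 91.0% in d6 PGCLC, 25.1% to 44.4% in plasmablasts, 14.2% to 29.8% in photoreceptor precursors and 14.9% to 34.5% in intestinal epithelium. Gene shares ran from 54.9% to 90.6%, 57.9% to 97.0%, 80.1% to 85.2%, 48.4% to 72.8% and 40.6% to 74.8% in that order. With a library of another cell type left out, its remaining library alone decided binding there, a looser rule than that of both libraries. The difference in the share near a start ran from -9.95 to -7.89 and that in median distance from 10319.2 to 12098.6 bp. That in the share of summits in clusters ran from -21.1 to -15.9. None of these differences passed 0.05 after adjustment. Of 116 list counts under the alternatives, 61 moved by over 1.5 times. With 1 library left out, cell cycle genes ran from 6 to 14, ribosomal genes from 10 to 18, oxidative phosphorylation genes from 10 to 16, WNT genes from 8 to 13, Hox genes from 1 to 5, MHC class I genes from 10 to 12 and interferon genes from 12 to 14. No paired analysis was possible because the E12.5 PGC libraries carry no replicate number. A stricter peak threshold was not run because the lists carry no score. The cause of these changes was not tested.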
